A study of Mus musculus with 11 samples.

Results

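The 10 genes described here are 7 guanylate-binding proteins (GBPs), Gbp2, Gbp3, Gbp4, Gbp5, Gbp6, Gbp7 and Gbp9, and 3 immunity-related GTPases (IRGs), Irgm1, Irgm2 and Igtp. They were picked by name, and all 10 were found among the 21899 genes of the deposited airway table through their Ensembl identifiers. RNA was sequenced in 11 libraries from male wild-type BALB/c mice of 6 to 8 weeks. Mice of the PBS group (n = 3) were not sensitized and received only PBS. OVA/LPS/Vehicle mice (n = 4) were given ovalbumin (OVA) with alum on days 0 and 7, intranasal OVA on days 14 to 17, intranasal lipopolysaccharide (LPS) on days 19 and 21, and vehicle into the trachea on days 21 to 23. OVA/LPS/GGsTop mice (n = 4) went through the same course with GGsTop, an inhibitor of γ-glutamyl transpeptidase, at 0.5 mg/kg in place of the vehicle. Tissue was taken on day 25 in all groups. The labels call it trachea, whereas the methods describe bluntly dissected airway with the trachea left out. Libraries of the OVA/LPS/Vehicle group carry the labels 12, 34, 56 and 78, and whether these mark pools of mice is not stated. The p-values measure the spread between libraries, which may be technical. It need not be the spread between single mice, since a pool would average over its mice.

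GBPs and IRGs are GTPases that cells make in response to interferons, above all interferon γ (IFNγ). GBPs gather on vacuoles that hold microbes and on bacteria in the cytosol, where they help to break these open and to set off inflammasomes. Irgm1, Irgm2 and Igtp (also called Irgm3) belong to the regulatory IRGs, which sit on the membranes of the host cell and keep the effector IRGs, such as Iigp1 and Tgtp1, inactive there. IFNγ binds its receptor of Ifngr1 and Ifngr2 chains, the kinases Jak1 and Jak2 pass the signal on, and target genes are switched on at GAS elements. Irf1 and other interferon regulatory factors act at interferon-stimulated response elements (ISREs).

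The members lie in 3 clusters. Gbp2 (ENSMUSG00000028270), Gbp3 (ENSMUSG00000028268), Gbp5 (ENSMUSG00000105504) and Gbp7 (ENSMUSG00000040253) are on chromosome 3. Gbp4 (ENSMUSG00000079363), Gbp6 (ENSMUSG00000104713) and Gbp9 (ENSMUSG00000029298) are on chromosome 5, and Irgm1 (ENSMUSG00000046879), Irgm2 (ENSMUSG00000069874) and Igtp (ENSMUSG00000078853) on chromosome 11. RefSeq promoter windows (build GRCm38.p6, 250 bases before to 50 bases after an annotated transcription start) matched 7 of the 10 members by symbol. The windows were searched for an ISRE core, spelled GAAANNGAAA on either strand, and for a GAS core, spelled TTCNNNGAA, whose fixed letters read the same on both strands. The 180 bases before the start are shown for these 7 members because they hold an ISRE core in each. Capitals mark the bases of every match, and the orientation is that of the gene.
Gbp2 (chr3:142620483-142620662, plus strand): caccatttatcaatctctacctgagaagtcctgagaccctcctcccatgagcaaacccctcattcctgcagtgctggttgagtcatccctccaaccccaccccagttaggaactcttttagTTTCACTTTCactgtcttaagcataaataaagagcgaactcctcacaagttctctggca
Gbp3 (chr3:142559864-142560043, plus strand): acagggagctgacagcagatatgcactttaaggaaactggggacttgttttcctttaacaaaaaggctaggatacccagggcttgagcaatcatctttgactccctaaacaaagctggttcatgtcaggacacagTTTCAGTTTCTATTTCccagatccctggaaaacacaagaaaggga
Gbp5 (chr3:142496754-142496933, plus strand): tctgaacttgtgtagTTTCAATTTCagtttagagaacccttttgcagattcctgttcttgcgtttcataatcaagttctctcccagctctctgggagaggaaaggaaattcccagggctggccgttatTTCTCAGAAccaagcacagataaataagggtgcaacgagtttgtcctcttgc
Gbp7 (chr3:142530156-142530335, plus strand): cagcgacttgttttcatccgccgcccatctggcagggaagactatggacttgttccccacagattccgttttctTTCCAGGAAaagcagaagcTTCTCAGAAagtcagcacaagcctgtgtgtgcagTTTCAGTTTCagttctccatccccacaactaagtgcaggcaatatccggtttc
Irgm1 (chr11:48871421-48871600, minus strand): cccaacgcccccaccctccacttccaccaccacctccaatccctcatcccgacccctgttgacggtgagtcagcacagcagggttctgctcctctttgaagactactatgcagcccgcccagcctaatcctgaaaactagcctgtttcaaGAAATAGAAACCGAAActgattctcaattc
Irgm2 (chr11:58214797-58214976, plus strand): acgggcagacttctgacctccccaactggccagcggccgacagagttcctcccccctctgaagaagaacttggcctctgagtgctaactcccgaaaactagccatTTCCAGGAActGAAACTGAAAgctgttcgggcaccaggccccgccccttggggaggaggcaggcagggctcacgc
Igtp (chr11:58199376-58199555, plus strand): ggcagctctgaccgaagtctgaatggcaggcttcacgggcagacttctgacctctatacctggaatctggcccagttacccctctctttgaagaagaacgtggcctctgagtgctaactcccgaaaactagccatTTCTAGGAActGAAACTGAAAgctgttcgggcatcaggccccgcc

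All 7 matched members had an ISRE core in at least 1 window, whereas 3.99% of all 27025 genes with a window did. By window, 7 of the 8 member windows had one, against 3.44% of all 32851 windows. In Gbp3 and in Irgm1 a pair of overlapping matches was found. Counted from the first base of the match, the ISRE core began 59 bases before the start in Gbp2, 53 in Gbp7, 64 in Irgm2 and 34 in Igtp, but 165 in Gbp5. The second of the 2 windows of Gbp3, at a start further downstream, had none. A GAS core was present in 4 of the 7, namely Gbp5, Gbp7, Irgm2 and Igtp, against 9.55% of all genes with a window. By window, 4 of the 8 member windows had one, against 8.3% of all windows. In Irgm2 and Igtp, which are neighbours on chromosome 11, 2 bases lay between the GAS core and the ISRE core after it, and in Gbp7 the nearer GAS core began 87 bases before the start. Such matches describe the letters of these windows and were not tested as binding sites.

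**Figure D1:**
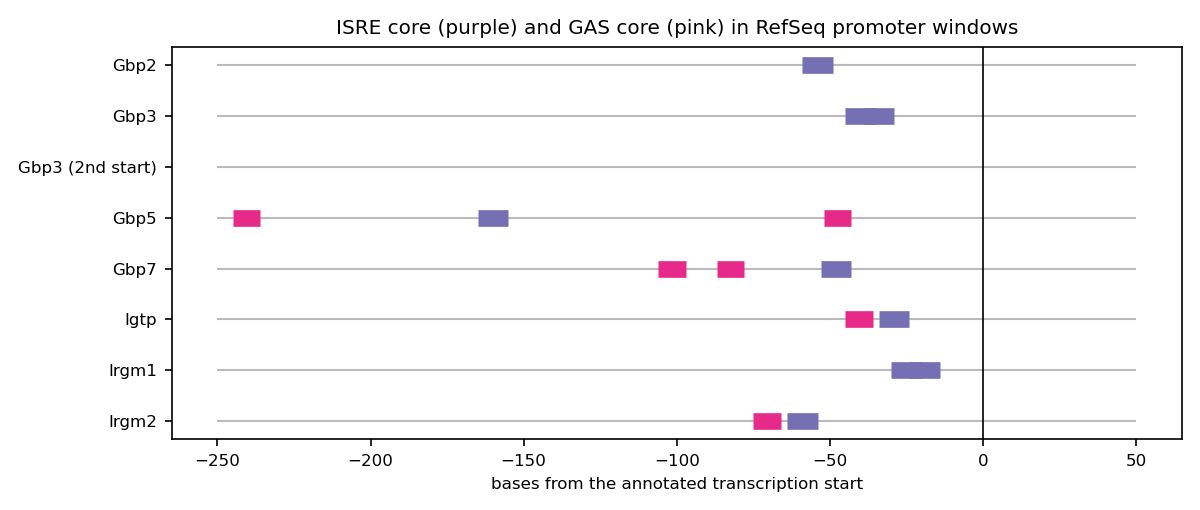
Position of ISRE cores (purple) and GAS cores (pink) in the promoter windows of 7 members, in bases from the annotated transcription start (vertical line, upstream to the left). Each line is 1 window, and Gbp3 has 2. Each of the 7 has a purple mark within 165 bases of a start, and pink marks are present in Gbp5, Gbp7, Irgm2 and Igtp.

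Levels are given as FPKM, fragments scaled to the exon length of the gene and to the total of the library, which allows comparison between genes. The FPKM implied totals of 14513136 to 18632382 fragments per library. Gbp9 was the most abundant member in PBS airway at 24.9 ± 7.29 FPKM (SD, n = 3), followed by Gbp2 at 17.1 ± 3.52, Gbp4 at 15.8 ± 2.81 and Igtp at 14.3 ± 2.31 FPKM. A second tier held Gbp3 at 9.26 ± 1.40, Gbp7 at 9.08 ± 2.04, Irgm2 at 8.83 ± 0.904 and Irgm1 at 7.78 ± 1.43 FPKM. Gbp5, which promotes assembly of the NLRP3 inflammasome, was at 2.04 ± 0.576 FPKM, and Gbp6 was near the limit of detection at 0.345 ± 0.241 FPKM, or 6 to 141 fragments per library over all groups. The PBS libraries of neighbours in this order overlapped, except between Igtp and Gbp3, between Irgm1 and Gbp5, and between Gbp5 and Gbp6. PBS 3 held the lowest value of its group in all 10 members. In PBS 3 the slope of log2 level on GC content over all genes was 0.53 per 10 points of GC, against 0.06 and 0.05 in PBS 1 and 2, and the members have 41.1% to 49.5% GC, below the median gene tested. The part of this slope in the low values was not tested. Gbp4, Gbp6 and Gbp9 have close relatives next to them on chromosome 5, as Gbp2 has in Gbp2b, so the counting may have split fragments between these genes.

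One library, OVA/LPS/Vehicle 12, stood apart from the others in all members. It held the highest value of all 11 libraries in all 10 genes, at 1.83 to 5.01 times the mean of libraries 34, 56 and 78, with a median of 3.03 times. Igtp was at 54.6 FPKM in library 12 and at 10.5, 12.6 and 9.47 FPKM in libraries 34, 56 and 78. Gbp4 was at 75.2 FPKM in library 12 and at 17.7, 14.04 and 16.7 FPKM in the others. Thus the highest ratios were seen in a regulatory IRG and in a GBP of chromosome 5, while Gbp9, also of chromosome 5, had the lowest, at 37.5 FPKM against 22.01, 20.5 and 18.9 FPKM. By Dixon's criterion, which sets the gap of a sample to its nearest neighbour against the range of the group, library 12 stood above the other OVA/LPS/Vehicle libraries in 8 of the 9 members that passed the expression filter of a mean of at least 0.5 FPKM and in Gbp6, the 1 member below that filter, but in 2.41% of the 14004 genes tested.

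**Figure D2:**
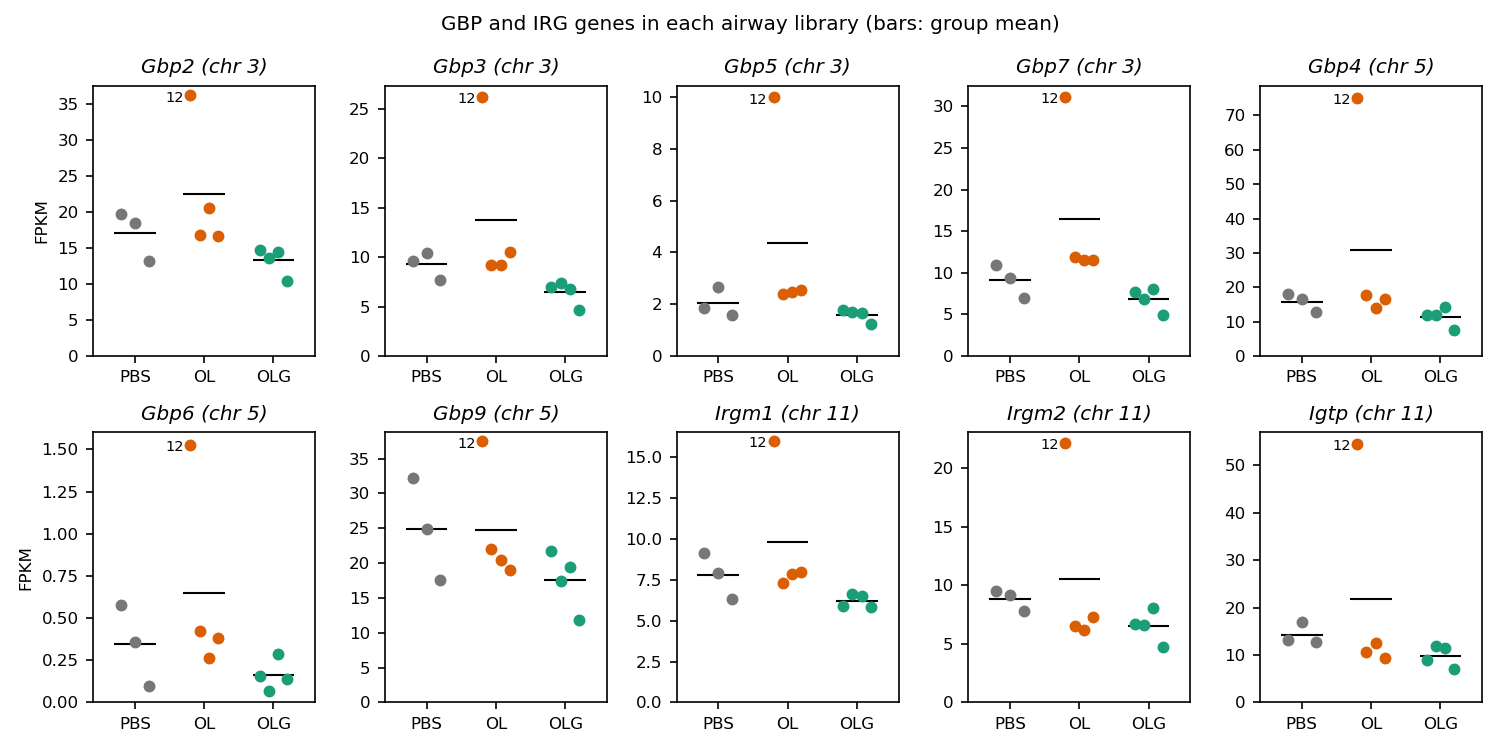
FPKM of the 10 members in each library, with 1 point per library, horizontal lines at the group means, and linear axes from 0. OL is OVA/LPS/Vehicle (n = 4, with library 12 marked), OLG is OVA/LPS/GGsTop (n = 4), and PBS has n = 3. Library 12 is the highest point of all 11 in each gene, and the other OL points lie in the range of PBS or close to it.

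Library 12 also differed in its cell markers. The sum of 6 T cell markers, Cd3d, Cd3e, Cd3g, Cd4, Cd8a and Cd8b1, was 72.6 FPKM in library 12 against 10.7 to 23.5 FPKM in the other OVA/LPS/Vehicle libraries, and each of the 6 was highest there. The sum of 4 thymocyte markers, Rag1, Rag2, Dntt and Ptcra, was 23.6 FPKM in library 12 and at most 0.348 FPKM in every other library. Of the 4, 3 were highest in library 12, and all 4 were at 0 in at least 1 library. Tg, which encodes thyroglobulin of the thyroid, was at 90.6, 166 and 303 FPKM in libraries 12, 34 and 56, against at most 1.44 FPKM in the others. Of the airway epithelium, the secretory product Scgb1a1 was at 26145 to 47905 FPKM, Cdh1 at 67.7 to 99.6 FPKM, Krt8 at 78.8 to 190 FPKM, Epcam at 30.5 to 59.1 FPKM and Foxj1 at 21.2 to 157 FPKM over all libraries. Krt5 of basal cells varied from 0.0288 to 33.1 FPKM. The sum of these 6 airway epithelial markers was lower in library 12, at 31643.5 FPKM, than in the other vehicle libraries, at 42862.1 to 48260 FPKM. In PBS it was 26385.6 to 38128.3 FPKM. The sum of 5 alveolar epithelial markers was also lower in library 12, at 5183 FPKM against 6166 to 8579 FPKM in the other vehicle libraries. The part of these other cells in the level of the members was not tested, and in bulk RNA fewer cells of a type and less RNA per cell cannot be told apart. Because library 12 alone sets much of the OVA/LPS/Vehicle mean, each comparison of the members that uses this group is given with and without it.

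**Figure D3:**
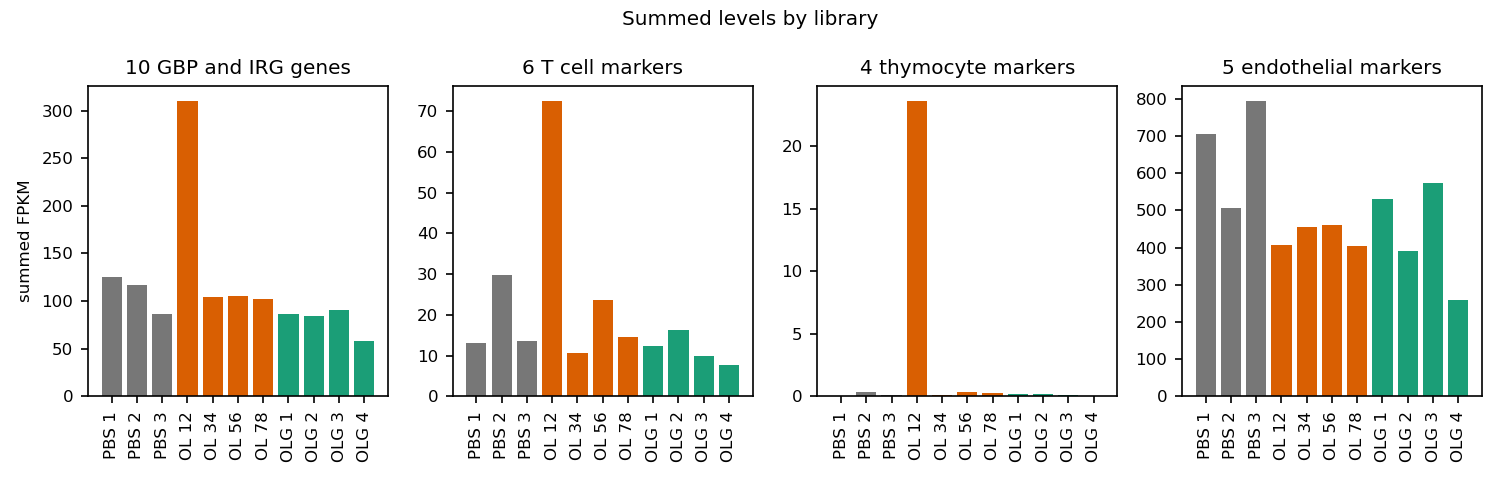
Summed FPKM per library of the 10 members, 6 T cell markers, 4 thymocyte markers and 5 endothelial markers, as bars from 0 (gray PBS, orange OVA/LPS/Vehicle, green OVA/LPS/GGsTop). The member sum is 310 FPKM in library OL 12 and between 58.4 and 125 FPKM elsewhere, and the T cell and thymocyte sums are highest in the same library.

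OVA and LPS with vehicle, compared with PBS, gave no called difference in any member. The values log2(FPKM + 1) were fitted with limma over all libraries, and a gene was called at a Benjamini-Hochberg adjusted p under 0.05 over all genes tested. None of the 9 members tested was called, and Gbp7 alone had an unadjusted p under 0.05, as did 49.6% of all genes, while 15.9% of all genes were called higher and 22.1% lower in this comparison. With limma voom on the recovered fragments the count was also 0 of 9. Of the 9 members, 8 lay above 0, with a median log2 difference of 0.33 beside -0.01 over all genes. Without library 12 the median was 0.04, 6 were above 0 and 3 below, and again none was called, with 12.7% of all genes called higher and 20.4% lower.

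Gbp7, which takes part in oxidative and vesicular killing of microbes, came nearest to a call. Its levels were 10.96, 9.36 and 6.92 FPKM in PBS, and 31.1, 11.8, 11.5 and 11.5 FPKM in OVA/LPS/Vehicle libraries 12, 34, 56 and 78. All OVA/LPS/Vehicle libraries thus lay above all PBS libraries, as they did in 18.7% of the genes tested, and this held without library 12, as in 21.4%. The log2 difference of Gbp7 was 0.68 (SE 0.31, limma adjusted p = 0.101), and 0.35 (SE 0.19, adjusted p = 0.166) without library 12. After a correction for GC content it was 0.27 (SE 0.31, adjusted p = 0.546), and -0.09 (SE 0.14, adjusted p = 0.674) with library 12 also left out, so the direction turned.

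Igtp and Irgm2 went to either side depending on library 12. Igtp was at 13.2, 16.97 and 12.8 FPKM in PBS, above libraries 34, 56 and 78 given earlier and below library 12. Its log2 difference was 0.19 (SE 0.47, adjusted p = 0.757) with library 12 and -0.36 (SE 0.19, adjusted p = 0.154) without it. Irgm2 was at 9.54, 9.14 and 7.81 FPKM in PBS and at 22.1, 6.48, 6.17 and 7.30 FPKM in libraries 12, 34, 56 and 78, with log2 differences of 0.04 (SE 0.34, adjusted p = 0.935) and, without library 12, -0.36 (SE 0.16, adjusted p = 0.101). Libraries 34, 56 and 78 lay below every PBS library in both regulatory IRGs, which was the case for 30.0% of all genes tested. Irgm1, the third of this class, was at 9.15, 7.89 and 6.30 FPKM in PBS and at 16.0, 7.33, 7.87 and 7.98 FPKM in the OVA/LPS/Vehicle libraries, with libraries 34, 56 and 78 inside the PBS range.

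The remaining GBPs overlapped between PBS and OVA/LPS/Vehicle. Gbp4 and Gbp5 had log2 differences of 0.58 (SE 0.46) and 0.63 (SE 0.35), and of 0.04 and 0.21 without library 12. Gbp9, the most abundant in PBS, was at -0.02 (SE 0.27), and at -0.23 (SE 0.24) without library 12. For Gbp6, below the expression filter, an exact two-sided permutation test gave p = 0.543 with all libraries and p = 0.8 without library 12, where the smallest p possible is 0.1.

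The GBPs of chromosome 3 and Irgm1 were lower in every OVA/LPS/GGsTop library than in any OVA/LPS/Vehicle library, and Gbp7 passed the test. In OVA/LPS/GGsTop compared with OVA/LPS/Vehicle, all 9 members tested had log2 differences below 0, between -1.04 and -0.44, with a median of -0.71 beside 0.03 over all genes. Of these, 1 of 9, Gbp7, was called lower, while 1.81% of all genes were called lower and 6.90% higher. Without library 12, all 9 were still below 0, with a median of -0.42 beside 0.04 over all genes, and Gbp7 was again the 1 member called, with 0.814% of all genes called lower and 4.46% higher. At an unadjusted p under 0.05 there were 6 of the 9 members with and 6 without library 12, all lower, beside 30.8% and 28.2% of all genes at that p in either direction.

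Gbp7 was at 7.71, 6.87, 8.07 and 4.86 FPKM in OVA/LPS/GGsTop libraries 1 to 4, all below the lowest OVA/LPS/Vehicle library at 11.5 FPKM. Its log2 difference was -1.04 (SE 0.29, adjusted p = 0.0479), or -0.70 (SE 0.17, adjusted p = 0.0471) without library 12. The call stood close to the threshold and was lost when any of libraries 34, 56 and 78, any 1 OVA/LPS/GGsTop library or PBS 1 was left out. It was also lost after a correction for GC content, where the log2 difference was -0.74 (SE 0.29, adjusted p = 0.159) and 0.436% of all genes were called lower, and -0.39 (SE 0.13, adjusted p = 0.131) with library 12 also left out, where 0.129% were. The slope of log2 level on GC content was -0.26 to -0.19 per 10 points of GC in the OVA/LPS/Vehicle libraries and 0.05 to 0.11 with GGsTop, and the members had 41.1% to 49.5% GC, below the median of 49.9% of the genes tested.

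The other GBPs of chromosome 3 showed the same order of groups. Gbp3 was at 26.3, 9.22, 9.16 and 10.5 FPKM in OVA/LPS/Vehicle and at 6.94, 7.43, 6.79 and 4.70 FPKM in OVA/LPS/GGsTop, a log2 difference of -0.86 (SE 0.28, adjusted p = 0.0714). Gbp5 was at 10.001, 2.39, 2.49 and 2.56 FPKM and at 1.78, 1.70, 1.67 and 1.23 FPKM, a log2 difference of -0.84 (SE 0.33, adjusted p = 0.111). Gbp2, which coats the vacuole of Toxoplasma, was at 36.2, 16.8, 20.5 and 16.6 FPKM and at 14.6, 13.6, 14.4 and 10.4 FPKM, a log2 difference of -0.66 (SE 0.23, adjusted p = 0.0833). In each of these genes the highest OVA/LPS/GGsTop library stayed under the lowest OVA/LPS/Vehicle library, although none passed the adjusted threshold. Without library 12 the log2 differences were -0.52 for Gbp3, -0.43 for Gbp5 and -0.42 for Gbp2, with adjusted p = 0.0661, 0.0857 and 0.131.

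Among the IRGs, Irgm1 differed from its relatives in whether the groups overlapped. Irgm1 was at 5.92, 6.61, 6.52 and 5.81 FPKM with GGsTop, below all OVA/LPS/Vehicle libraries, with a log2 difference of -0.52 (SE 0.20, adjusted p = 0.117) and of -0.28 (SE 0.12, adjusted p = 0.161) without library 12. Irgm2 was at 6.66, 6.61, 8.06 and 4.72 FPKM with GGsTop, around libraries 34, 56 and 78, and its log2 difference went from -0.44 (SE 0.32) to -0.04 (SE 0.15) without library 12. Igtp was at 8.97, 11.9, 11.4 and 7.12 FPKM with GGsTop, and its log2 difference went from -0.71 (SE 0.43) to -0.15 (SE 0.18). For Irgm2 and Igtp most of the difference between the groups was lost without library 12, and the 95% interval without it was -0.37 to 0.29 for Irgm2 and -0.54 to 0.25 for Igtp.

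The GBPs of chromosome 5 overlapped between these groups. Gbp4 was at 11.9, 11.97, 14.4 and 7.62 FPKM with GGsTop against 14.04 to 75.2 FPKM with vehicle, with a log2 difference of -1.02 (SE 0.43, adjusted p = 0.133) and -0.48 (SE 0.19, adjusted p = 0.138) without library 12. Gbp9 ranged from 11.8 to 21.7 FPKM with GGsTop, and its log2 difference was -0.45 (SE 0.25) and -0.24 (SE 0.22) without library 12. Gbp6 ranged from 0.0694 to 0.287 FPKM with GGsTop and from 0.263 to 1.53 FPKM with vehicle, with a log2 difference of -0.45 and an exact permutation p of 0.0571, where the smallest p this design allows is 0.0286. Without library 12 these were -0.22 and 0.0857 in the exact permutation test. In all, 5 of the 9 members tested, Gbp2, Gbp3, Gbp5, Gbp7 and Irgm1, were lower with GGsTop without overlap, against 12.4% of all genes, and without library 12 the same 5, against 14.9%. By cluster, the median log2 difference without library 12 was -0.48 over 4 genes of chromosome 3, -0.36 over 2 of chromosome 5 and -0.15 over 3 of chromosome 11.

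Other measurements moved with this comparison. The summed level of 6 NK cell markers, Ncr1, Klrb1c, Nkg7, Eomes, Prf1 and Gzma, was 16.2 to 23.5 FPKM with vehicle and 10.8 to 12.1 FPKM with GGsTop. In PBS it was 22.7 to 28.6 FPKM. Gzma made up much of this sum, at 9.76 to 14.4 FPKM with vehicle and 4.62 to 6.04 FPKM with GGsTop. Ncr1 and Gzma did not overlap between these groups, whereas the others did. Klrb1c went the other way, with a mean of 0.143 FPKM with vehicle and 0.190 FPKM with GGsTop. The T cell sum was 7.56 to 16.4 FPKM with GGsTop. Of the 4 NK cell markers tested, all lay below 0 in log2 difference and 2 were called lower, or 1 without library 12. All 6 T cell markers lay below 0, with a median of -0.74 and none called. Of the remaining lists, the 4 B cell markers lay below 0 with a median of -0.46, and their sum was 34.3 to 95.5 FPKM with vehicle and 31.3 to 61.0 FPKM with GGsTop. The 4 cartilage markers also lay below 0, with a median of -0.59. The 7 macrophage markers lay above 0 with 1 called higher and a median of 0.17, and their sum was 133 to 260 FPKM with vehicle and 191 to 276 FPKM with GGsTop. The 4 eosinophil and 3 smooth muscle markers tested also lay above 0, with medians of 0.49 and 0.35. The 3 thyroid markers lay below 0, with a median of -1.41 and 1 called lower, or 0 without library 12. Their sum was 91.5, 175, 313 and 0.440 FPKM in vehicle libraries 12, 34, 56 and 78, and 0.432 to 1.60 FPKM with GGsTop. OVA/LPS/GGsTop 4 held the lowest value of all 11 libraries in 9 of the 10 members. It also had the lowest endothelial sum, 258 FPKM against 392 to 573 FPKM in the rest of its group, and the highest smooth muscle sum, 853 FPKM against 348 to 461 FPKM. The part of these cell types in the members' levels was not tested.

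**Figure D4:**
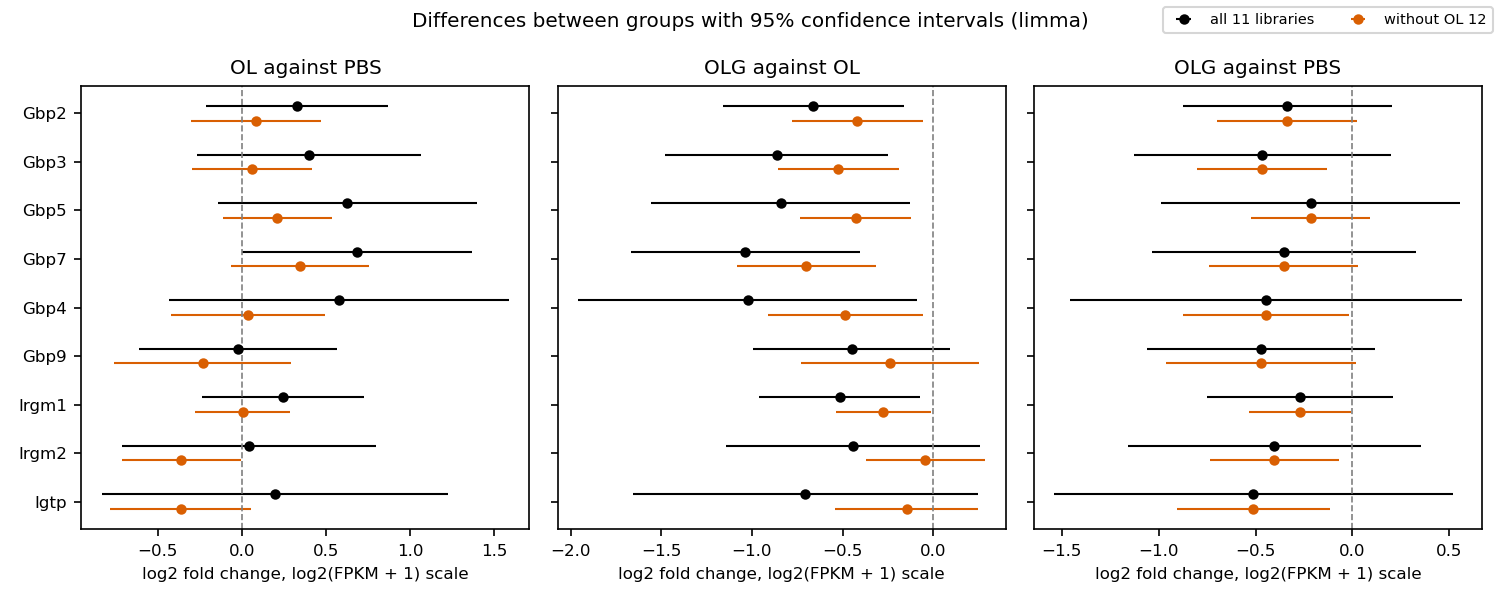
Log2 differences of the 9 members tested, with 95% confidence intervals from limma, on the log2(FPKM + 1) scale, for all 11 libraries (black) and without OVA/LPS/Vehicle 12 (orange). OL is OVA/LPS/Vehicle and OLG is OVA/LPS/GGsTop. All points of OLG against OL lie below 0, from -1.04 to -0.44 in black, and Irgm2 and Igtp come closest to 0 in orange, at -0.04 and -0.15.

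Against PBS, OVA/LPS/GGsTop airway had 0 of 9 members called with limma, and 0 at an unadjusted p under 0.05, beside 20.5% of all genes in either direction. Limma voom also gave 0. Without library 12, which narrows the shared estimate of the spread, 5 had an unadjusted p under 0.05, all lower, beside 9.76% of all genes, and 0 were called. All 9 had log2 differences below 0, from -0.51 for Igtp to -0.22 for Gbp5, with a median of -0.40 beside 0.01 over all genes. The members were not alone in this. Of 23 type I interferon-stimulated genes tested, 21 lay below 0 with a median of -0.35. With limma, 12 of them had an unadjusted p under 0.05, and 0 were called. Lymphocyte markers also lay below 0, the 6 of T cells with a median of -0.47 and the 4 of B cells with -0.97. The 4 NK cell markers tested had a median of -0.88, and 3 were called lower. By contrast, the 6 airway epithelial and 4 eosinophil markers tested lay above 0, with medians of 0.43 and 0.94. In this comparison 0.821% of all genes were called lower and 2.06% higher. Gbp3, at 9.62, 10.5 and 7.73 FPKM in PBS, and Igtp lay below every PBS library in all GGsTop libraries, 2 of 9 members against 7.54% of all genes. Their log2 differences were -0.47 (SE 0.30, adjusted p = 0.399) and -0.51 (SE 0.47, adjusted p = 0.556). With the replicate numbers that PBS and GGsTop libraries share as a block, these 2 members, Gbp3 and Igtp, had an unadjusted p under 0.05, beside 7.06% of all genes lower at that p. Their blocked log2 differences were -0.34 (adjusted p = 0.288) and -0.38 (adjusted p = 0.239), and 0 members were called. Both this comparison and the preceding one use the GGsTop libraries, so they are not independent.

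The other GBP and IRG genes followed the members in part. Of 13 on the list, 11 were found and 9 could be tested, none of them a member. With limma on all libraries 0 of the 9 were called in each of the 3 comparisons, with 3, 6 and 1 at an unadjusted p under 0.05 for vehicle against PBS, GGsTop against vehicle and GGsTop against PBS, beside the shares of all genes at that p given for the members. Limma voom called 1 in the first comparison and 0 in the others. The effector IRG Iigp1 was at 5.18, 5.07 and 1.84 FPKM in PBS, at 27.0, 5.37, 4.83 and 5.91 FPKM with vehicle and at 2.68, 2.76, 2.42 and 2.38 FPKM with GGsTop, for a log2 difference between GGsTop and vehicle of -1.37 (SE 0.44, adjusted p = 0.0693), and -0.84 (SE 0.24, adjusted p = 0.0628) without library 12. All vehicle libraries lay above all GGsTop libraries. Tgtp1 and Tgtp2, near-identical effector IRGs whose fragments cannot be assigned securely, had log2 differences of -0.80 and -0.96, both without overlap, and of -0.44 and -0.58 without library 12. In all, 6 of these 9 genes lay lower with GGsTop without overlap, Gbp2b, Iigp1, Tgtp1, Tgtp2, Ifi47 and Gm4951, beside the 12.4% of all genes. Irgq, a more distant IRG, was at 3.92, 3.76 and 3.97 FPKM in libraries 34, 56 and 78 and at 4.60 to 7.12 FPKM with GGsTop, and its log2 difference between GGsTop and vehicle was 0.27 (SE 0.15, adjusted p = 0.235). Without library 12, Irgq fell by 0.54 with vehicle against PBS on the log2 scale (SE 0.15, adjusted p = 0.0251), and with the GC correction as well the value was -0.22 (adjusted p = 0.238). In that last setting 3 of the 9 genes were called lower with vehicle against PBS, beside 11.4% of all genes. With GGsTop against vehicle 0 were called, and with GGsTop against PBS 2 were called lower, where the share of all genes was not counted. Of the others, Gbp8 and Gbp10 overlapped, with 1.73 to 3.90 and 0.295 to 0.534 FPKM with GGsTop and 1.82 to 10.6 and 0.421 to 3.95 FPKM with vehicle. Irgc1 and Gvin1 stayed below the filter, at no more than 0.236 FPKM in any library.

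Upstream of the members, the receptor chain Ifngr2 changed in both comparisons. It was at 17.1, 15.7 and 13.96 FPKM in PBS, at 20.0, 20.98, 23.5 and 22.5 FPKM with vehicle, and at 16.6, 16.5, 16.4 and 14.8 FPKM with GGsTop. The vehicle libraries were above both other groups without overlap, and library 12 was the lowest of them. Ifngr2 rose with OVA/LPS/Vehicle by a log2 difference of 0.45 (SE 0.10, adjusted p = 0.00726) and fell by 0.41 (SE 0.09, adjusted p = 0.0272) with GGsTop, and both calls held without library 12. With the GC correction both calls also held, at 0.48 (adjusted p = 0.0102) and -0.44 (adjusted p = 0.0390). With the correction and without library 12 the adjusted p for GGsTop against vehicle was 0.0503. The partner chain Ifngr1 was at 46.1 to 51.7 FPKM with vehicle and 39.3 to 54.5 FPKM with GGsTop, with a log2 difference of 0.01. Ifng itself was listed at 0 to 0.308 FPKM in every library, too low to test.

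With all libraries and no GC correction, Jak1, Jak2, Irf1 and Socs1 were not called in any comparison. Jak1 was at 28.2 to 35.6 FPKM in all libraries, and without library 12 it fell by 0.26 on the log2 scale with vehicle against PBS (SE 0.09, adjusted p = 0.0481). Jak2 was at 10.4 to 20.1 FPKM, with all vehicle libraries above all PBS libraries (log2 difference 0.39, SE 0.15, adjusted p = 0.0569). Irf1 was at 23.7 to 30.3 FPKM with vehicle and 19.04 to 34.2 FPKM with GGsTop. Socs1, the inhibitor of Jak kinases that IFNγ induces, was at 4.17, 2.24, 2.29 and 2.26 FPKM with vehicle and at 1.12, 1.80, 1.79 and 1.25 FPKM with GGsTop, without overlap (log2 difference -0.57, SE 0.18, adjusted p = 0.0647). The value was -0.40 (adjusted p = 0.116) without library 12, and with the GC correction Socs1 was called lower, at -0.84 (adjusted p = 0.0323). Of the 16 genes of IFNγ signalling, 15 were tested. Ptpn2 and Ifngr2 rose and Socs3 fell with OVA/LPS/Vehicle against PBS, beside 15.9% of all genes called higher and 22.1% lower. Without library 12, 2 were called higher and 3 lower there, beside 12.7% and 20.4%. With GGsTop against vehicle only Ifngr2 was called, lower, beside 1.81% of all genes. The GC correction ended the calls of Ptpn2 (0.13, adjusted p = 0.254) and Socs3 (-0.44, adjusted p = 0.186), and that of Socs3 was also lost without library 12 (-0.71, adjusted p = 0.0845). The counts for vehicle against PBS with the GC correction were still 2 higher and 1 lower, so other genes were called in their place. Of all genes, 8.11% were then called higher and 13.3% lower.

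Other interferon-induced genes gave few calls. Among 24 other IFNγ-induced genes tested, 3 fell with OVA/LPS/Vehicle against PBS, Nos2, Tapbp and H2-D1, fewer than the 22.1% of all genes called lower. Without library 12 there were 5. With the GC correction the count lower was 0, beside 13.3% of all genes, 2 genes were called higher, Psme1 and Psme2, beside 8.11%, and 15 of the 24 lay above 0 in place of 10. Limma called 0 with GGsTop against vehicle, where 2 had an unadjusted p under 0.05 and the median log2 difference was -0.16. Limma voom called 0 there as well, and the GC correction gave 1, Psme1 (-0.38, adjusted p = 0.0351). Nos2, the inducible nitric oxide synthase, fell by 0.80 on the log2 scale (SE 0.20, adjusted p = 0.0117), and its value was -0.71 (adjusted p = 0.0271) without library 12 and -0.58 (adjusted p = 0.0510) with the GC correction. The proteasome activator Psme2 and the MHC class I light chain B2m had log2 differences of -0.31 (adjusted p = 0.0648) and -0.45 (adjusted p = 0.0953) with GGsTop against vehicle, and of -0.26 and -0.36 without library 12, and the immunoproteasome subunit Psmb10 was at -0.61 (adjusted p = 0.0795) with GGsTop against PBS. Of 23 type I interferon-stimulated genes tested, 3 fell with GGsTop against vehicle, Ifi44, Rtp4 and Ifit1, and 20 were below 0, with 1.81% of all genes called lower. With the GC correction 1 of these calls was left, Rtp4 (-0.54, adjusted p = 0.0392), Ifi44 was at -0.37 (adjusted p = 0.118) and Ifit1 at -0.31 (adjusted p = 0.269), and with library 12 also left out the count was 0. Ifi44 fell by 0.70 on the log2 scale (SE 0.14, adjusted p = 0.0224), from 3.87, 2.55, 3.41 and 3.46 FPKM to 1.43, 2.02, 1.82 and 1.34 FPKM. Unlike the members, Ifi44 stood in library 12 at only 1.23 times the mean of the other vehicle libraries. Ifi44 and Rtp4 kept their calls without library 12, and Ifit1 did not (adjusted p = 0.0756). Isg15, a ubiquitin-like modifier, had log2 differences of -0.67 (adjusted p = 0.0787) with GGsTop against vehicle, or -0.58 (adjusted p = 0.156) without library 12, and -0.97 (adjusted p = 0.0562) against PBS.

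Of 23 genes tested that work with GBPs and IRGs in autophagy, prenylation and inflammasomes, 4 rose and 6 fell with OVA/LPS/Vehicle against PBS, shares near the 15.9% and 22.1% of all genes. The counts were the same without library 12, and 1 and 6 with the GC correction, beside 8.11% and 13.3%. The inflammasome caspases Casp4, which senses LPS, and Casp1 rose by 0.72 (SE 0.15, adjusted p = 0.00638) and 0.69 (SE 0.17, adjusted p = 0.0114) on the log2 scale. Both calls held without library 12 and were lost with the GC correction, at 0.16 (adjusted p = 0.537) and 0.25 (adjusted p = 0.221). Gsdmd was lower without overlap, at 25.9 to 40.3 FPKM in PBS and 18.1 to 22.5 FPKM with vehicle. Without library 12, 30.0% of all genes lay lower without overlap. Groups overlapped in the rest. Means fell for Nlrp3 (1.95 to 1.14 FPKM), Il18 (13.9 to 9.12) and Il1b (14.1 to 12.9), and rose for Aim2 (2.99 to 4.20) and Pycard (0.322 to 0.378). Among the 6 genes called lower, the autophagy genes Ulk1, Map1lc3b, Gabarapl1 and Sqstm1 fell with and without library 12. Ulk1 went from 13.3 to 17.9 FPKM in PBS to 8.12 to 9.78 FPKM (log2 difference -0.67, SE 0.11, adjusted p = 0.00368). With GGsTop against vehicle 2 of the 23 were called, and both rose, beside 6.90% of all genes. Ulk1 rose to 12.9 to 14.6 FPKM (log2 difference 0.54, SE 0.10, adjusted p = 0.0198) and Map1lc3b from 24.9 to 26.2 FPKM to 33.4 to 35.9 FPKM (log2 difference 0.43, SE 0.08, adjusted p = 0.0198). Both calls held without library 12. With the GC correction Map1lc3b was called (0.37, adjusted p = 0.0314), beside 1.80% of all genes called higher, and Ulk1 was not (0.28, adjusted p = 0.0585), and with library 12 also left out the count was 0. The vehicle and GGsTop libraries did not overlap in either gene, and both directions are opposite to those of the members.

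The genes outside these lists whose log2(FPKM + 1) was most like the mean of the standardised members over 11 libraries were Gm4070, Eif2s3x, Maoa, Ddc and Slc16a5, with Pearson correlations of 0.96, 0.96, 0.95, 0.92 and 0.92. Each was highest in library 12, as in Ddc at 12.7 FPKM against 1.02 to 2.02 FPKM in the other vehicle libraries. Over the 10 libraries without it, the nearest were Bod1l, Itgb6, Ms4a4c, Dusp22 and Maoa, with correlations of 0.95, 0.95, 0.95, 0.94 and 0.94, so Maoa was the 1 gene in both groups. Libraries of a group share their treatment, and these values are descriptions.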

How the data were processed

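RNA-seq of airway was analysed in 11 libraries (PBS, n = 3; OVA/LPS/Vehicle, n = 4; OVA/LPS/GGsTop, n = 4), grouped by their labels. The authors deposited FPKM for 21899 genes, fragments scaled to exon length and library total, with no further scaling between libraries. The submitters' processing notes name cutadapt 1.15, HISAT2 2.0.5, HTSeq 0.9.1 and mm39. Symbols, exon lengths and GC content came from GENCODE M21 on GRCm38. With these lengths, FPKM gave whole fragments (within 0.02) in all libraries for 97.8% of genes, with totals of 14513136 to 18632382 fragments per library. Genes whose mean reached 0.5 FPKM (14004) were fitted as log2(FPKM + 1) with limma 3.58.1 (R 4.3.3) with a mean-variance trend, after a test on simulated data. Tests were two-sided, with Benjamini-Hochberg adjustment across all 14004 genes. Gbp6, under the minimum, was compared by an exact permutation test. The members and gene lists were chosen with earlier results of these data known. Of the other genes, those named are all measured GBP and IRG genes, the signalling chain, up to 4 per list with the smallest p, and the 5 most alike. Tapbp, H2-D1, Casp1, Gabarapl1, Gsdmd, Nlrp3, Il18, Il1b, Aim2 and Pycard were named after their values were seen. Of the signalling chain, 1 gene is not reported here. Summaries used pandas 2.3.3 and numpy 2.4.6 under Python 3.11.15, and plots matplotlib 3.10.9.

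PBS and OVA/LPS/GGsTop libraries share the numbers 1 to 3. Their deviations from the group means correlated at 0.367, 0.427 and 0.428 in same-numbered pairs and at -0.693 to 0.637 in the other pairs. PBS 2 with GGsTop 4 (0.637) and PBS 1 with GGsTop 3 (0.457) were above every same-numbered pair, so these values do not establish a pairing. The main fits used no pairing, and the numbers entered only as a block in alternative fits. The labels do not say what the numbers stand for. Alternatives are given after the results.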

Additional observations from a re-analysis of the deposited data

Results flagged for a closer look

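Of 20 groups of 4 libraries checked, the 10 members in OVA/LPS/Vehicle and in OVA/LPS/GGsTop, 9 held a library whose gap to the nearest other was past Dixon's 95% limit for 4 values. Chance gives this in about 1 in 20 groups. In all 9 it was OVA/LPS/Vehicle 12, above the other vehicle libraries, in each member but Gbp2. Its values were 26.3 FPKM for Gbp3, 75.2 FPKM for Gbp4, 10.001 FPKM for Gbp5, 1.53 FPKM for Gbp6, 31.1 FPKM for Gbp7 and 37.5 FPKM for Gbp9. In the IRGs they were 16.0 FPKM for Irgm1, 22.1 FPKM for Irgm2 and 54.6 FPKM for Igtp. The 9 come from the same library and are not independent. All 6 T cell markers and 3 of the 4 thymocyte markers were highest in the same library, and their part in these values was not tested.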

How the results depend on the processing

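In OVA/LPS/GGsTop against OVA/LPS/Vehicle, 1 member was called with all libraries. The count was 0 with no filter, with the same FPKM total, with the GC correction, and with OVA/LPS/Vehicle 12 left out together with the GC correction or with the same median. It was 2 with array weights, 5 without OVA/LPS/Vehicle 12 and PBS 3, and 0 to 1 with single libraries left out. The count of all genes called lower moved as well, so these counts are not specific to the members. It was 254 in the main fit, 1982 with array weights and 1292 without OVA/LPS/Vehicle 12 and PBS 3. With single libraries left out it was 4 to 1447, and in the settings named with 0 members it was 18 to 184. All 9 log2 differences stayed below 0 under every alternative except the GC correction without library 12, which gave 0.0569 for Gbp9 and 0.0527 for Irgm2. In OVA/LPS/Vehicle against PBS, the count of 0 became 1 with array weights and 2 with the GC correction without library 12, Gbp9 (-0.64, adjusted p = 0.0424) and Irgm2 (-0.51, adjusted p = 0.0409), while 11.4% of all genes were then called lower. In OVA/LPS/GGsTop against PBS it became 1 with array weights. With these weights 1178 of all genes were called lower there, against 115 in the main fit. For OVA/LPS/Vehicle against PBS they gave 4473 genes called lower, against 3096 in the main fit. With the replicate block for the PBS and OVA/LPS/GGsTop libraries, 0 of 9 members were called and no member's call changed. In all, 95 genes were called, against 403 without the block. With the block and the GC correction the counts were 0 and 413.

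Reversed log2 differences of OVA/LPS/Vehicle against PBS were these. With array weights, Gbp2 was at -0.0365, Irgm1 at -0.0787, Irgm2 at -0.25 and Igtp at -0.10. Without library 12 and PBS 3, Gbp2 was at -0.0886, Gbp3 at -0.0552, Gbp4 at -0.10, Irgm1 at -0.12, Irgm2 at -0.44 and Igtp at -0.43. With the GC correction and without library 12, Gbp2 was at -0.0415, Gbp3 at -0.12, Gbp4 at -0.34, Gbp7 at -0.0869, Irgm1 at -0.19, Irgm2 at -0.51 and Igtp at -0.35. Irgm2 was at -0.12 with the same FPKM total and -0.10 with the GC correction, and with the same median and no library 12 Irgm2 was at -0.34 and Igtp at -0.35. Leaving out each library in turn gave -0.24 to 0.18 for Gbp9, -0.36 to 0.20 for Irgm2 and -0.36 to 0.44 for Igtp. The cause was not tested. The settings that leave out library 12 together with another change were chosen after seeing the data. Gbp6, with 6 to 141 fragments, is limited by depth.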
